A study of Mus musculus with 8 samples.

Results

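The genes described here are 34 target genes of the transcription factor p53, with the p53 gene Trp53 itself among them and Cdkn1a left out. They were taken by symbol from a table of read counts per gene with 26146 genes, and all 34 were found. The counts come from polyA RNA of sorted Lin-Sca1+Kit+ (LSK) cells, the bone marrow fraction of stem cells and early multipotent progenitors, from 4 wild type and 4 Jmjd6 KO mice, with 1 library per mouse. The KO mice carried floxed Jmjd6 alleles removed from blood-forming cells by a Cre restricted to that lineage, whose promoter the labels do not name, and no age, strain or drug treatment is given in the labels. The labels do not say whether the wild type mice carried Cre or floxed alleles. Jmjd6 encodes a JmjC-domain oxygenase. The question was whether the p53 targets moved with Cdkn1a, the target that encodes the cell cycle inhibitor p21 and that stood higher in the KO libraries.

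As background, p53 is held low by the ubiquitin ligase Mdm2 and its partner Mdm4. After DNA damage, nucleolar stress or oncogene activity p53 escapes this control and binds response elements near genes that stop the cell cycle, repair DNA, adjust metabolism or start cell death. Mdm2 is itself a target, which closes a negative feedback loop. In haematopoietic stem cells p53 is known for limiting entry into the cell cycle and for the loss of damaged cells. Cdkn1a is also controlled by factors other than p53.

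The p53 response element is made of 2 decamers of a fixed consensus, each palindromic, so a search of 1 strand covers both. Promoter windows of RefSeq (build GRCm38.p6, equivalent to mm10), which run from 250 bases before to 50 bases after a gene start, were found for 26 of the 34 members and for Cdkn1a; Tnfrsf10b, Pmaip1, Perp, Trp53inp1, Zmat3, Ddb2, Xpc and Rrm2b had no window in the table. The consensus, with at most 1 mismatch per decamer outside its C and G cores and at most 1 base between the decamers, was found in 3 of the 26 members (11.5%), Ccng1, Gtse1 and Rps27l, and in 0.559% of all 27025 genes with a window. The pair of CNNG cores alone, at the spacing of adjoining decamers, was in 96.2% of the members and 72.4% of all genes and so picks out few genes. The matches are shown because these members hold the same kind of sequence as Cdkn1a in a window at 1 of their RefSeq starts. They are printed 5′ to 3′ on the strand of the gene, with the matched element in capitals.
Cdkn1a, chr17:29090898-29090975, plus strand: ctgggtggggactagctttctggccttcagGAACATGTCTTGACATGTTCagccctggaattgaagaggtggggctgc
Ccng1, chr11:40755434-40755511, minus strand: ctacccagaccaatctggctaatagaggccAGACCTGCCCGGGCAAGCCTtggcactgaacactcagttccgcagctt
Rps27l, chr9:66946296-66946315, plus strand: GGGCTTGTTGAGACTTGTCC
Gtse1, chr15:85859945-85859964, plus strand: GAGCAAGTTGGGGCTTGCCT
Each of the 4 has 1 mismatch to the consensus. The Cdkn1a match begins 51 bases before the upstream one of its RefSeq starts, and the Ccng1 match 195 bases before its start. The Rps27l match begins 117 bases before the downstream one of its RefSeq starts. The Gtse1 match begins 1 base before the downstream one of its RefSeq starts and runs across it. Both thus lie inside the genes as GENCODE M21 annotates them. The Rps27l match lies 210 bases after the GENCODE gene start and overlaps no exon, within 3 of 6 transcripts. The Gtse1 match lies 200 bases after the gene start and overlaps an exon of 1 of its 2 transcripts. A second match in Gtse1 shares its first decamer with the end of the first match. A match of letters is a description and shows no binding, and the windows do not cover introns, where many response elements lie.

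Total counts per library lay between 9344779 and 15079960. Jmjd6 stood at 52.5 to 63.7 CPM (read counts relative to a scaled library total) in the wild type libraries and at 27.5 to 30.7 CPM in the KO libraries, with no overlap. The stem and progenitor markers Kit and Cd34 were at 416 CPM or more in every library, whereas the gate's T cell and granulocyte markers Cd3e, Cd8a and Ly6g averaged at most 0.185 CPM in either genotype. Markers of other cells moved with genotype in part, and their part in the results was not tested. Summed markers of T and NK cells were 136 to 242 CPM in the wild type and 284 to 390 CPM in the KO libraries, most of it Nkg7. All 3 tested of the 8 lay above 0, and Nkg7 and the gate marker Cd4 had groups without overlap (log2 fold changes 0.84 and 1.05, adjusted p = 0.392 and 0.583 by edgeR), whereas Cd3e was at 0 in all KO libraries. Of the B and plasma cell markers 6 of 6 tested lay above 0, with sums of 63.9 to 115 CPM in the wild type and 87.5 to 209 CPM in the KO libraries. Of 8 macrophage markers 6 lay above 0, with sums of 123 to 231 and 139 to 268 CPM; among them Vsig4 averaged 0.580 CPM in the wild type and 6.24 CPM in the KO libraries without overlap (adjusted p = 0.149 by edgeR), and Cd68 gave 0.73 (adjusted p = 0.769 by edgeR). Wild type replicate 1 held the most granule markers, 5541 CPM, where the remaining wild type libraries held 1356 to 1628 CPM and the KO libraries 1950 to 2902 CPM. It was also highest in erythroid markers, at 1713 CPM beside 934 to 1106 CPM in the other 7 libraries. Other lists leaned towards lower values in KO. Of the 10 erythroid markers 8 fell (median -0.95 in log2 units), and 0 had groups without overlap. Of the 6 megakaryocyte markers 5 fell (median -0.31), with sums of 100 to 225 CPM in the wild type and 131 to 167 CPM in the KO libraries. Among these, Ppbp had groups without overlap (log2 fold change -1.91, adjusted p = 0.746 by edgeR). On the first principal component the library of KO replicate 3 had a score of 83.9 against -28.0 to 9.4 in the others, and wild type replicate 4 and KO replicate 3 had 0 Y-linked counts. In bulk RNA, fewer cells of a type and less RNA per cell cannot be told apart.

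None of the 34 p53 targets passed the test between genotypes, and the fold change of each was smaller than that of Cdkn1a. Cdkn1a stood at 24.1, 27.5, 28.1 and 32.7 CPM in wild type replicates 1 to 4 and at 73.9, 58.5, 57.5 and 43.4 CPM in KO replicates 1 to 4. Every KO library therefore lay above every wild type library, with a log2 fold change of 1.05 (95% interval 0.63 to 1.47) and an adjusted p over all genes of 0.149 by edgeR's quasi-likelihood test, 0.00060 by DESeq2 and 0.0160 by limma voom. Of the 34 members, 0 passed an adjusted p of 0.05 by edgeR, where 0.0595% of the 13439 tested genes did (8 genes); DESeq2 and limma voom also called 0 members. At an unadjusted p under 0.05 there was 1 member, Btg2, or 2.94%, against 6.06% of all tested genes. Members lay above and below 0 in near equal numbers, 19 and 15, and their median log2 fold change was 0.02 against -0.00 over all tested genes. The groups did not overlap in 1 member, Ercc5, where 4.19% of all tested genes had groups without overlap.

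The 95% interval of the log2 fold change ended below that of Cdkn1a, 1.05, in 28 of 34 members, as it did in 88.4% of all tested genes. It lay wholly between a 1.5-fold fall and a 1.5-fold rise in 13 members, against 33.1% of all tested genes. The other 6 members, whose intervals reached the change of Cdkn1a, were Eda2r, Perp, Plk2, Plk3, Sertad1 and Gdf15. The comparison takes Cdkn1a at its estimate of 1.05 and leaves out its own 95% interval of 0.63 to 1.47. The ratio of member to Cdkn1a was on average lower in KO in all 34, and was lower in every KO library than in every wild type library in 18 of 34 (52.9%) against 62.4% of the 13404 other tested genes. This ratio contains Cdkn1a itself, so it carries little about the members.

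**Figure D1:**
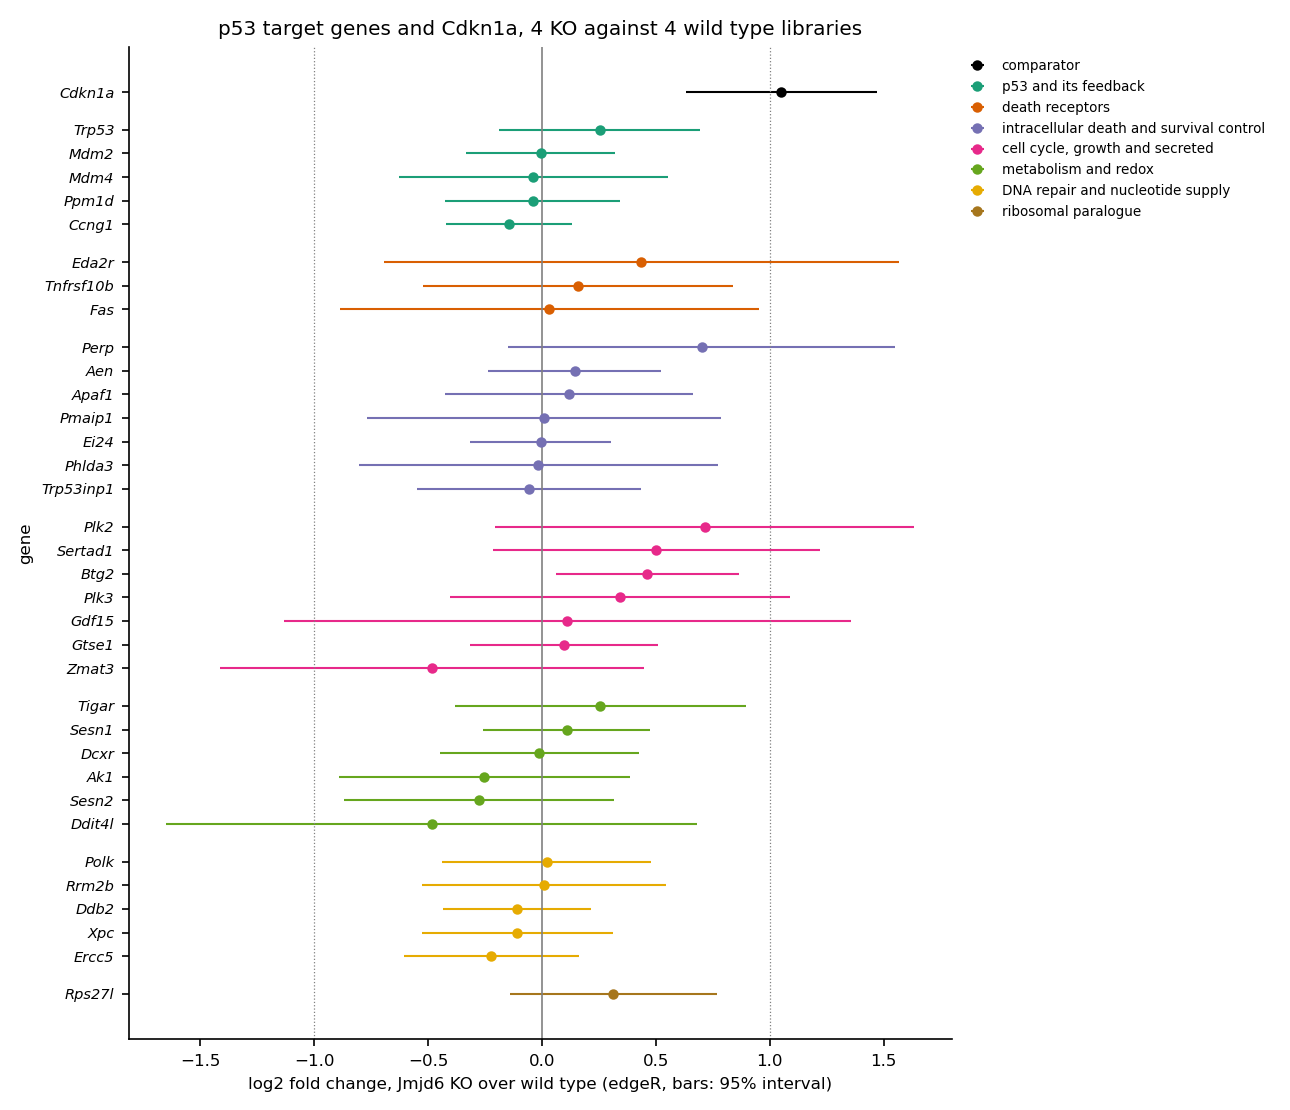
The log2 fold change of Jmjd6 KO over wild type (horizontal axis, edgeR) is plotted for Cdkn1a and the 34 p53 targets, grouped and coloured by role, with bars for the 95% interval and dotted lines at a 2-fold change. Cdkn1a sits at 1.05, while the members lie between -0.49 and 0.71 and only the interval of Btg2 leaves out 0.

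The p53 gene and its feedback regulators gave log2 fold changes between -0.14 and 0.25. Trp53 (chromosome 11, 69580359 to 69591873, plus strand) stood at 354, 209, 433 and 393 CPM in wild type replicates 1 to 4 and 455, 413, 392 and 396 CPM in KO replicates 1 to 4. Wild type replicate 2 was the low library, and the other 7 lay between 354 and 455 CPM, so the groups overlapped (log2 fold change 0.25 with an SE of 0.20, adjusted p = 0.848 by edgeR). Without wild type replicate 2 the log2 fold change was 0.07. Mdm2 (chromosome 10, 117688875 to 117710758, minus strand), the ligase that degrades p53 and the target that closes the feedback loop, had nearly equal levels in both genotypes. It stood at 101, 97.6, 104 and 79.3 CPM in wild type and 98.7, 102, 100 and 79.4 CPM in KO. Its lowest library in each genotype, replicate 4, gave almost the same value, and the log2 fold change was -0.01 (95% interval -0.33 to 0.32, adjusted p = 0.994 by edgeR).

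Ccng1 (chromosome 11, 40748552 to 40755311, minus strand), which encodes cyclin G1, a recruiter of phosphatase to Mdm2, held 160, 144, 149 and 143 CPM in wild type and 130, 139, 124 and 147 CPM in KO. Apart from KO replicate 4, the KO libraries were below all wild type libraries, with a log2 fold change of -0.14 (95% interval -0.42 to 0.13, adjusted p = 0.850 by edgeR, two-sided exact permutation p = 0.0857). Ccng1, which has the element printed above, thus lay on the other side of 0 from Cdkn1a. Ppm1d, the phosphatase Wip1 that shuts off the DNA damage signal, gave -0.04, and its 52.1 ± 3.81 CPM in wild type stood beside 50.6 ± 9.70 CPM in KO (SD, n = 4). Mdm4, the partner of Mdm2 that masks the activation domain of p53, gave -0.04, with 24.2 CPM in KO replicate 4 and 28.3 CPM in wild type replicate 2 as its low libraries.

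The death receptor genes were measured at low levels. Eda2r (chromosome X, 97333840 to 97377216, minus strand), a receptor of the tumour necrosis factor family, stood at 3.20, 0.599, 1.21 and 2.52 CPM in wild type and 1.58, 3.39, 2.21 and 2.94 CPM in KO. KO replicate 2 was the highest library and wild type replicate 2 the lowest, with the others mixed between them, and the log2 fold change of 0.44 had a 95% interval from -0.69 to 1.57 (adjusted p = 0.885 by edgeR). Without wild type replicate 2 the log2 fold change of Eda2r was 0.13, and without wild type replicate 1 it was 0.80. Tnfrsf10b, the mouse receptor for the death ligand TRAIL, gave 0.16, with 7.63 CPM in KO replicate 3 and 3.61 to 5.35 CPM in the other 3 KO libraries. Fas, the receptor for Fas ligand, gave 0.03 at 1.99 ± 0.487 CPM in the wild type and 2.04 ± 0.795 CPM in the KO libraries.

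Among genes that act on death inside the cell, 4 of 7 lay above 0 and 3 below, and 0 passed. Pmaip1 (chromosome 18, 66458533 to 66465565, plus strand), which encodes the BH3-only protein Noxa, held 7.62, 4.85, 5.52 and 13.0 CPM in wild type and 6.42, 5.45, 11.3 and 8.06 CPM in KO. Each genotype held 1 library above 10 CPM, wild type replicate 4 and KO replicate 3, which are the ones without Y-linked counts. The log2 fold change was 0.01 (95% interval -0.77 to 0.79, adjusted p = 0.996 by edgeR), and it was 0.16 when only the 6 libraries with Y-linked counts were used. Phlda3 (chromosome 1, 135766119 to 135769136, plus strand), a pleckstrin homology protein that restrains Akt, held 3.53, 15.3, 9.74 and 12.0 CPM in wild type and 8.97, 9.05, 11.8 and 10.5 CPM in KO. The KO libraries lay close together inside the wild type range, and the log2 fold change was -0.02 (95% interval -0.81 to 0.77, adjusted p = 0.994 by edgeR). The largest value of this group was of Perp, a membrane protein of p53-dependent death, at 5.39 ± 2.61 CPM in the wild type and 8.81 ± 2.75 CPM in the KO libraries (log2 fold change 0.70 with an SE of 0.39, adjusted p = 0.832 by edgeR). Perp ran from 2.10 CPM in wild type replicate 1 to 12.4 CPM in KO replicate 4, and 2 wild type libraries lay at or above the lowest KO value of 6.51 CPM. Aen, an apoptosis-enhancing nuclease, and Apaf1, the scaffold of the apoptosome, gave 0.14 and 0.12, and Ei24 and Trp53inp1, both linked to autophagy, gave -0.01 and -0.06.

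Of the 7 genes of the cell cycle, growth and secreted group, 6 lay above 0, with a median log2 fold change of 0.34, and 0 passed. Btg2 (chromosome 1, 134075170 to 134079120, minus strand), an antiproliferative cofactor of mRNA deadenylation, stood at 91.2, 133, 107 and 75.2 CPM in wild type and 155, 149, 116 and 140 CPM in KO. Apart from KO replicate 3, which lay below wild type replicate 2, the KO libraries were above all wild type libraries. The log2 fold change was 0.46 (SE 0.18, 95% interval 0.06 to 0.86) with unadjusted p = 0.0274 and adjusted p = 0.772 by edgeR, and a two-sided exact permutation p of 0.0571. Over the 18 alternative fits the unadjusted p was under 0.05 in 14, with adjusted p from 0.147 to 0.999. It was not without wild type replicate 1 (0.0545), wild type replicate 4 (0.0898) or KO replicate 1 (0.0538), or with library size only (0.0505).

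Btg2 and Plk2 are also rapid responders to growth factor and stress signals. Of 14 tested immediate early genes, a list that holds Fos, Jun and Egr1, 11 lay above 0 with a median log2 fold change of 0.20, and their summed level was 1708 to 3374 CPM in the wild type and 1991 to 3711 CPM in the KO libraries. Wild type replicate 1 and KO replicate 4 were the low libraries of that list. Their part in the values of Btg2 was not tested. Plk2, a polo-like kinase, held 5.96, 14.6, 14.7 and 16.5 CPM in wild type and 18.8, 19.1, 38.7 and 8.44 CPM in KO. KO replicates 1 to 3 thus lay above all wild type libraries and KO replicate 4 inside their range, and the log2 fold change of 0.71, the largest of the 34, had an SE of 0.42 (adjusted p = 0.832 by edgeR). Plk3, a related kinase, gave 0.34 at 3.77 ± 1.28 CPM in the wild type and 4.83 ± 1.06 CPM in the KO libraries. Sertad1, a coactivator of cyclin D and E2F activity, gave 0.50, with 59.8 CPM in KO replicate 4 and 40.0 CPM in wild type replicate 2 as its high libraries.

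Zmat3 (chromosome 3, 32334792 to 32366014, minus strand), an RNA-binding protein that acts on splicing and transcript stability, lay on the other side of 0. It stood at 2.87, 3.52, 3.11 and 4.86 CPM in wild type and 1.94, 3.91, 3.43 and 1.08 CPM in KO. KO replicates 1 and 4 were below all wild type libraries and the other 2 inside their range, with a log2 fold change of -0.48 (95% interval -1.41 to 0.45, adjusted p = 0.850 by edgeR). Without KO replicate 4 it was -0.22. Gtse1, a regulator of p53 in G2 with the element printed above, gave 0.10 at 33.0 ± 6.15 CPM in the wild type and 35.4 ± 5.25 CPM in the KO libraries. Gdf15, a secreted stress cytokine, gave 0.11 from few reads, with 0.442 to 2.86 CPM in the wild type and 1.22 to 2.56 CPM in the KO libraries.

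Metabolic targets showed 2 of 6 genes above 0 and 4 below, and their median log2 fold change was -0.13. Sesn2 (chromosome 4, 132492032 to 132510501, minus strand), a leucine sensor that restrains mTORC1, held 14.0, 21.5, 17.2 and 13.7 CPM in wild type and 18.7, 10.6, 9.08 and 16.5 CPM in KO. KO replicates 2 and 3 lay below all wild type libraries and KO replicates 1 and 4 inside their range (log2 fold change -0.28, 95% interval -0.87 to 0.32, adjusted p = 0.867 by edgeR). Without KO replicate 3 the log2 fold change of Sesn2 was -0.12, and without wild type replicate 2 it was -0.13. Its relative Sesn1 gave 0.11, with 183 to 251 CPM in the wild type and 191 to 275 CPM in the KO libraries. Tigar, which diverts glucose towards the pentose phosphate pathway, gave 0.26, Ak1, an adenylate kinase, -0.25 and Dcxr, a sugar and carbonyl reductase, -0.01. Ddit4l, another restraint of mTORC1, gave -0.49 with a 95% interval from -1.65 to 0.68; it had the fewest reads of the 34, 129 over the 8 libraries.

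The DNA repair targets gave log2 fold changes from -0.22 to 0.02. Ercc5 (chromosome 1, 44147744 to 44181260, plus strand), the endonuclease XPG of nucleotide excision repair, stood at 19.2, 22.7, 20.5 and 20.4 CPM in wild type and 17.5, 18.6, 15.7 and 19.2 CPM in KO. The KO libraries lay below the wild type libraries, but wild type replicate 1 and KO replicate 4 were level at 19.2 CPM to 3 digits. The log2 fold change was -0.22 with an SE of 0.18 (unadjusted p = 0.230 and adjusted p = 0.845 by edgeR). Ercc5 was thus at 85.7% of its wild type level. It is given library by library because its groups did not overlap, as in 4.19% of all tested genes. Such groups by themselves give the smallest two-sided exact permutation p of 4 against 4 libraries, 0.0286. That p therefore adds nothing to the separation. Ddb2 and Xpc, which recognise ultraviolet lesions in the same pathway, both gave -0.11. Xpc had a low library in KO replicate 3, at 93.1 CPM where the remaining KO libraries held 153 to 173 CPM. Polk, a translesion polymerase, and Rrm2b, the p53-inducible subunit of ribonucleotide reductase, gave 0.02 and 0.01.

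Rps27l (chromosome 9, 66946086 to 66949516, plus strand) encodes a close relative of the ribosomal protein Rps27 and has the element printed above. It held 180, 128, 131 and 175 CPM in wild type and 139, 156, 256 and 212 CPM in KO. KO replicates 3 and 4 lay above the wild type range and the other KO libraries inside it, with a log2 fold change of 0.31 (95% interval -0.14 to 0.77, adjusted p = 0.833 by edgeR). Rps27 gave 0.30, with its lowest KO value in KO replicate 3, at 312 CPM where the remaining KO libraries held 402 to 466 CPM, so the library highest in Rps27l was the lowest KO library in Rps27. No source used here gives the counting method, so reads of these relatives may not have been told apart.

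**Figure D2:**
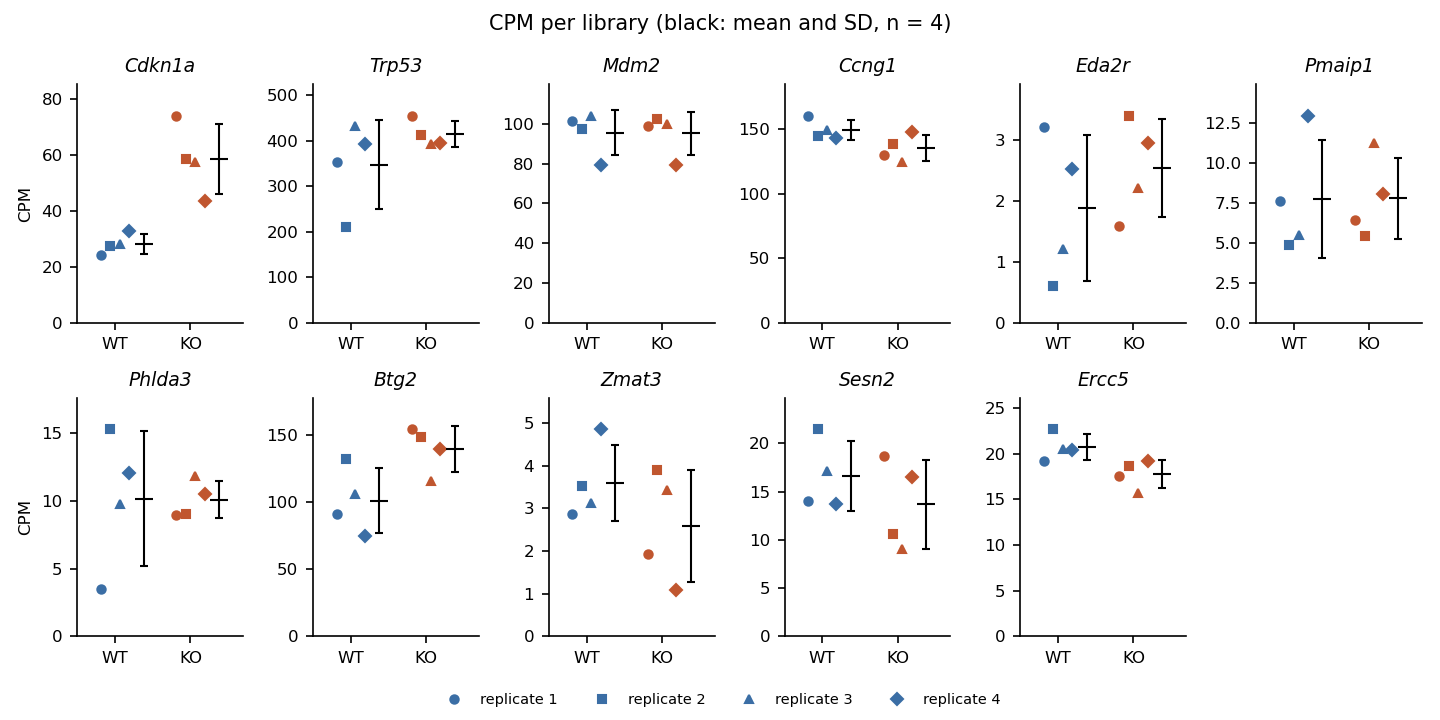
CPM in each library (vertical axes, from 0) is plotted for Cdkn1a and 10 of the members described library by library, with a marker shape per replicate number and the mean and SD in black (n = 4). Cdkn1a separates the genotypes with 24.1 to 32.7 CPM against 43.4 to 73.9 CPM, while Mdm2 and Phlda3 have near equal means.

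Whether members followed Cdkn1a from library to library was examined within each genotype, because Cdkn1a separates the genotypes and a correlation over all 8 libraries would restate that difference; groups of 4 are too small for a correlation of their own. For each gene the libraries were counted in which it lay on the same side of its genotype mean as Cdkn1a. The median was 4 of 8 libraries for the 34 members and 4 for the 13404 other tested genes. Agreement in 6 or more libraries was found for 3 members (8.82%), Plk2, Mdm4 and Rrm2b, against 16.3% of other genes, and in 2 or fewer for 4 members (11.8%), Ppm1d, Fas, Gtse1 and Ercc5, against 13.4%. The KO library with the most Cdkn1a, replicate 1, was the highest KO library of 7 members (20.6%), beside 21.6% of other genes. KO replicate 4, with the least, was the lowest of 9 members (26.5%), beside 25.2%. In wild type the corresponding shares were 26.5% beside 24.7% for the highest library, replicate 4, and 38.2% beside 27.3% for the lowest, replicate 1. All genes of a library share its RNA and depth, so these shares are descriptions.

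**Figure D3:**
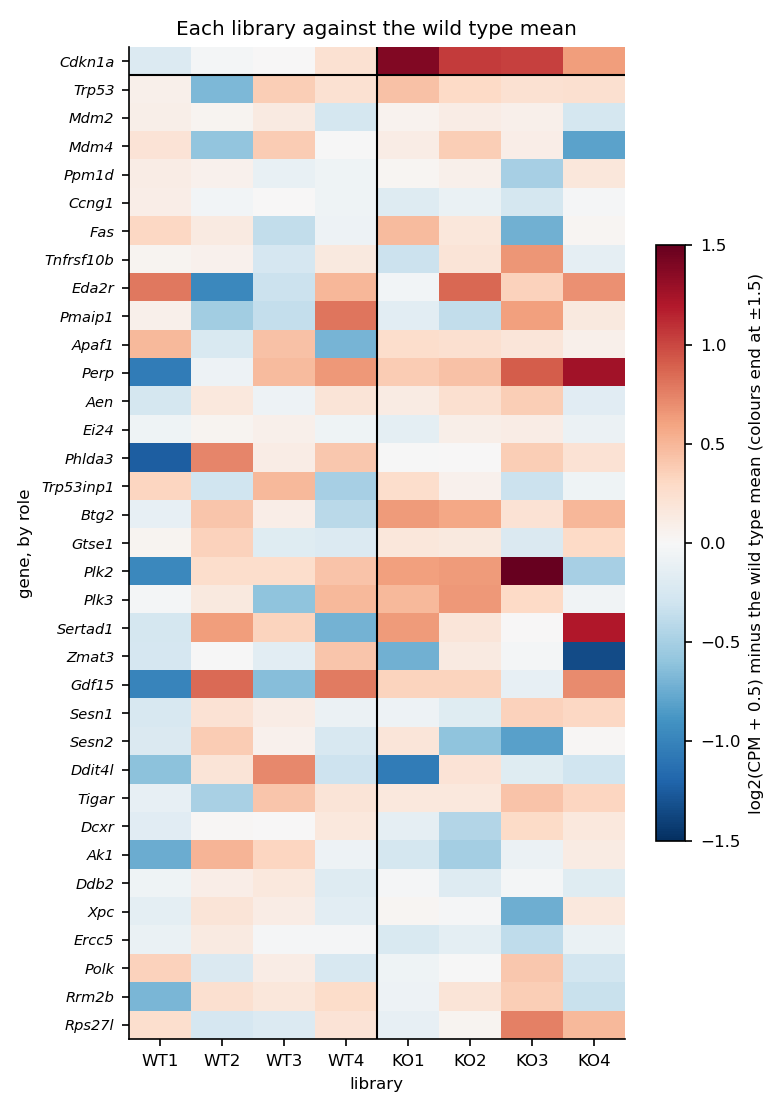
Each cell gives log2(CPM + 0.5) of a gene in a library minus its wild type mean, with colours ending at ±1.5, for Cdkn1a (top row) and the 34 members by role, wild type replicates 1 to 4 on the left and Jmjd6 KO replicates 1 to 4 on the right. The top row turns red in all 4 KO libraries, Btg2 lies above its wild type mean of 101 CPM in all 4 as well, and Plk2 in KO replicate 3, at 38.7 CPM, is a single dark cell.

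**Figure D4:**
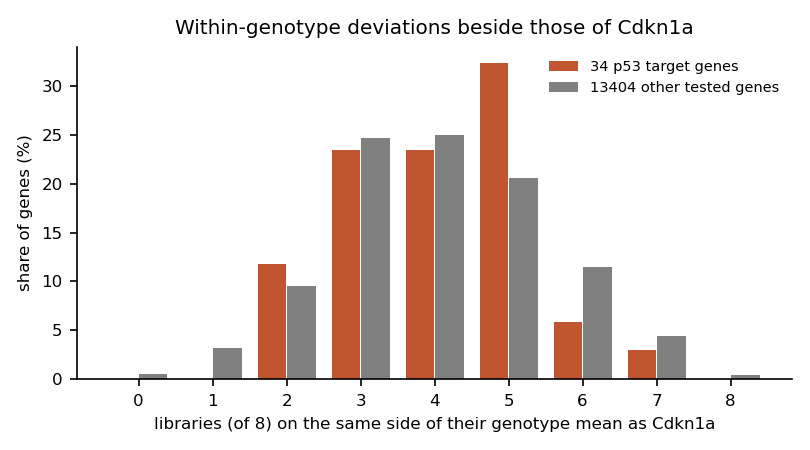
The share of genes (vertical axis, %) is plotted by the number of the 8 libraries in which the gene lay on the same side of its genotype mean as Cdkn1a, for the 34 members and the 13404 other tested genes. Both sets centre on 4 libraries, and the members have 32.4% at 5 and 0% at 8.

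The mean log2 CPM of the members was 4.28 for wild type replicate 1 and 4.49 to 4.50 for the other wild type libraries. For KO replicates 1 to 4 it was 4.49, 4.57, 4.57 and 4.52. KO replicate 1, with the highest Cdkn1a, had the lowest member mean of the KO libraries and lay inside the wild type range. KO replicates 2, 3 and 4 lay above all wild type libraries, where the pooled SD of this mean within genotype was 0.08. The summed level of the members overlapped, with 1811 to 2065 CPM in the wild type and 1994 to 2078 CPM in the KO libraries. Of the 34 members, 10 had their highest of all 8 values and 7 their lowest in KO replicate 3, the library farthest out on the first principal component, in which 24.5% and 27.7% of all tested genes did. Leaving out that library together with wild type replicate 1 left 0 members called.

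Compared per kilobase of exon, the members spanned a wide range of levels. Rps27l was highest at 188 CPM per kilobase in wild type, followed by Trp53 at 85.8, Sesn1 at 54.8, Ccng1 at 42.5 and Btg2 at 37.0 CPM per kilobase. Mdm2 stood at 18.8 CPM per kilobase. The lowest were Zmat3, Eda2r and Ddit4l, at 0.314, 0.319 and 0.539 CPM per kilobase, and 8 members had a wild type mean under 5 CPM before division by length. The spread between wild type mice, as SD over mean of CPM, ran from 5.11% to 76.5% with a median of 24.5%.

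**Figure D5:**
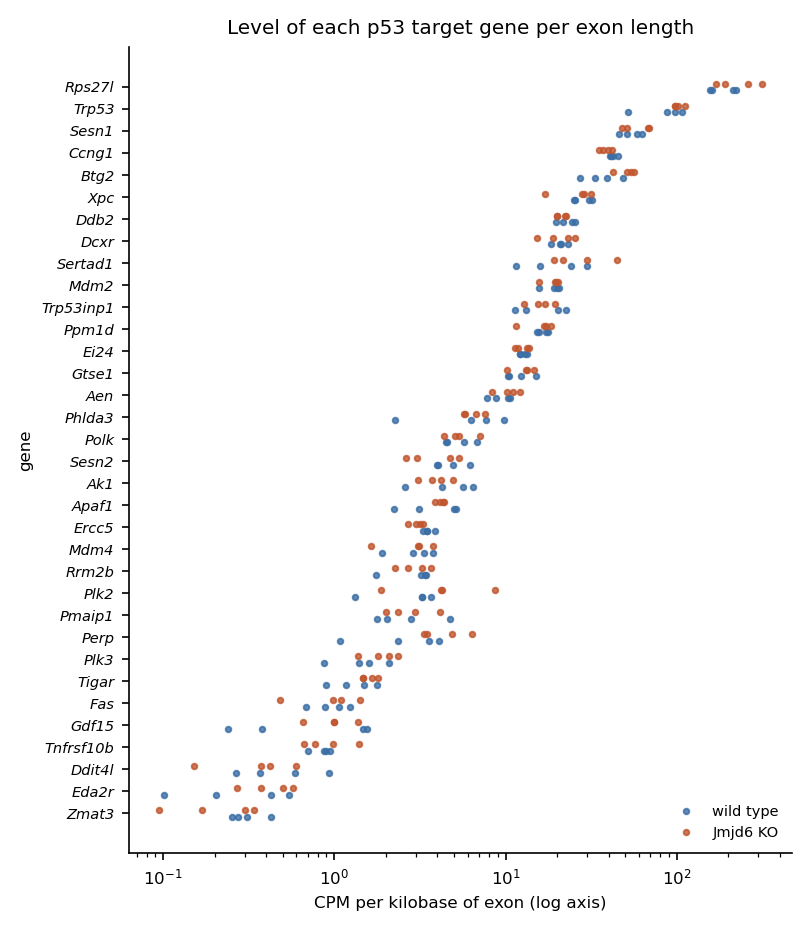
The level per exon length (CPM per kilobase, log axis) is plotted for each member in each of the 4 wild type and 4 Jmjd6 KO libraries, in the order of the wild type mean. The genotypes overlap in every row except Ercc5, where they nearly touch, from Zmat3 at 0.314 to Rps27l at 188 CPM per kilobase in wild type.

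Other genes of the pathway were taken from 3 further lists. Among 33 tested genes of a list of other p53 targets, 11 lay above 0 and 22 below, and their median log2 fold change was -0.11. By edgeR 0 passed over all genes, and 3 had an unadjusted p under 0.05 (9.09%, against 6.06% of all tested genes). The groups did not overlap in 3 of the 33, where 4.19% of all tested genes had groups without overlap. Bax, the pore-forming death effector, stood at 60.9 ± 10.8 CPM in the wild type and 63.2 ± 16.9 CPM in the KO libraries, and Bbc3, the BH3-only protein Puma, at 9.93 ± 3.85 and 10.3 ± 4.18 CPM, so the best known death effectors of p53 differed by less than the spread between mice. Dglucy, a mitochondrial enzyme of D-glutamate metabolism, was the 1 gene of this list with every KO library above every wild type library. It stood at 16.6, 18.2, 16.2 and 16.2 CPM in wild type and 33.0, 27.7, 33.6 and 32.8 CPM in KO, without overlap (log2 fold change 0.92 with an SE of 0.17, unadjusted p = 0.000146, adjusted p = 0.149 by edgeR). Dgka, a diacylglycerol kinase, gave -0.55 and Tap1, the peptide transporter of class I presentation, -0.46, each with groups that did not overlap and an adjusted p by edgeR of 0.670 and 0.771. Fdxr, ferredoxin reductase, gave -0.32.

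Upstream activators and regulators of p53 gave a median log2 fold change of -0.03 over 25 tested genes, 10 above 0 and 15 below. Hipk2, a kinase that activates p53 after damage, had the smallest p of the list, at 21.8 CPM in the wild type and 15.8 CPM in the KO libraries (log2 fold change -0.46, adjusted p = 0.786 by edgeR), and Trp53bp1, Prmt5 and Hipk1 gave -0.28, 0.18 and -0.26. The third list held genes of the cell cycle that the p21 and DREAM route represses. Of these 20 genes 18 lay above 0 in KO, with a median of 0.21, where 49.6% of all tested genes lay above 0. By edgeR 0 passed, and 1, Aurka, had an unadjusted p under 0.05 (5%, against 6.06% of all tested genes). In 0 of them were the groups without overlap. Their summed level was 4205, 3171, 3133 and 2853 CPM in wild type replicates 1 to 4 and 3866, 3764, 3537 and 3981 CPM in KO replicates 1 to 4. Wild type replicate 1 was thus the highest of all libraries, while the remaining wild type libraries lay below the KO libraries. The mitotic kinase gene Aurka, Ccnb2, Cdk1 and Birc5 gave log2 fold changes of 0.41, 0.35, 0.34 and 0.38, in the same direction as Cdkn1a.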

How the data were processed

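Counts of polyA RNA reads per gene symbol were deposited by the authors for 8 libraries, unnormalized; reads were aligned with HISAT2 to mm10, per the submitters' processing notes. No source used here gives how genes were counted, from which annotation or with what strand setting, so the antisense overlaps of Mdm4, Apaf1, Ei24, Plk3, Tigar, Ddb2, Polk and Rrm2b in GENCODE M21 may share reads. Columns were matched to mice by genotype and replicate number.

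Genotypes were compared with edgeR 4.0.16 (R 4.3.3) by its quasi-likelihood test, KO against wild type over 8 libraries, with TMM scaling and the filterByExpr filter (min.count 10, min.total.count 15), which all 34 members passed. Benjamini-Hochberg adjustment ran over 13439 genes, and a gene was called at an adjusted p under 0.05. CPM uses the TMM-adjusted library size, and log2 CPM a prior count of 2. Intervals are 95% intervals from the SE of the fit and so take in the variation among mice; the common biological coefficient of variation was 27.8%. Exon lengths and positions came from GENCODE M21 (GRCm38) and promoters from RefSeq GRCm38.p6. Scripts were tested on simulated counts.

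Members and lists were chosen with earlier results of these data known. Named library by library were members with an unadjusted p under 0.05 or groups without overlap, and Trp53, Mdm2, Ccng1, Phlda3, Zmat3, Eda2r, Pmaip1 and Sesn2; Plk2 and Rps27l were added after their values were seen. From other lists up to 4 genes with the smallest p were named; Bax and Bbc3 lie outside this rule. Alternatives were DESeq2 1.42.0, limma voom (limma 3.58.1) with sample weights, other scalings and filters, robust shrinkage, a replicate block and leaving out libraries. Paralogue protein identity was not analysed here.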

Additional observations from a re-analysis of the deposited data

Results flagged for a closer look

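Among 70 groups of 4 libraries examined, those of the 34 members and Cdkn1a in each genotype, 2 held a library far from the other 3, where chance gives about 1 in 20 groups. Mdm2 stood at 79.4 CPM in Jmjd6 KO replicate 4, where the remaining 3 KO libraries held 98.7 to 102 CPM. Rrm2b stood at 16.0 CPM in wild type replicate 1, where the remaining 3 wild type libraries held 29.2 to 31.5 CPM.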

How the results depend on the processing

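The count of p53 targets called was 0 under all 18 alternatives run, and their median log2 fold change stayed between -0.03 and 0.08, closer to the reported 0.02 than the spread between libraries of 1 genotype. The count of all genes called, 8 in the reported fit, was 71 by DESeq2, 31 by limma voom, 4 among the 6 libraries with Y-linked counts, 4 without wild type replicate 1 and Jmjd6 KO replicate 3 together, and 2 to 8 with single libraries left out. Targets with an unadjusted p under 0.05 numbered 2 of 34 by limma voom, where 9.96% of all tested genes had one. They numbered 0 with library size only (6.13% of all tested genes) and 0 to 2 with single libraries left out (3.97% to 7.53%). Beside Btg2 these were Plk2, Plk3, Perp or Sertad1. Cdkn1a passed by DESeq2 (1.05) and limma voom (1.14). It did not pass in the other 16 alternatives, with an adjusted p by edgeR of up to 0.721, with the replicate block. With single libraries left out its log2 fold change ran from 0.94 to 1.17. The median share of libraries on the side of Cdkn1a was 50% and ran from 42.9% to 57.1%.

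Members near 0 changed sign: by limma voom Mdm2 gave 0.020, Pmaip1 -0.15 and Phlda3 0.0084; Pmaip1 gave -0.047 with library size only, -0.0048 with no filter and -0.23 without wild type replicate 1 and Jmjd6 KO replicate 3. With single libraries left out Mdm2 ran from -0.087 to 0.071, Pmaip1 from -0.22 to 0.39 and Phlda3 from -0.27 to 0.25. The cause was not tested.

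The labels state no pairing of the mice. Same-numbered libraries had correlations of deviations from -0.192 to 0.0322, and 0 libraries correlated best with their own number. No shared signal by replicate number was thus seen, which cannot show that the mice were unpaired. With the replicate block 3 genes were called and Phlda3 gave 0.14. In that fit 2 of 34 targets had an unadjusted p under 0.05, as did 3.98% of all tested genes. The depth and spread limit Eda2r, Perp, Plk2, Plk3, Sertad1, Zmat3, Gdf15 and Ddit4l most, whose 95% intervals reached past a 2-fold change.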

Other observations

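Of the lists other than the p53 targets, that of immediate early genes had members most often on the side of Cdkn1a within genotypes. The median of the immediate early genes was 6 of 8 libraries over 14 genes, against 4 for the p53 targets and 4 for other genes. The 6 LSK markers and the 8 macrophage markers were close, each with a median of 5.5. This was noticed after the values were seen and carries no test. The mean log2 CPM of the immediate early genes in KO replicates 1 to 4 was 6.55, 6.39, 6.17 and 5.54, the same order as Cdkn1a at 73.9, 58.5, 57.5 and 43.4 CPM. In wild type replicates 1 to 4 it was 5.28, 6.31, 6.02 and 6.22, with the lowest library again that of Cdkn1a. The highest wild type library was replicate 2, whereas that of Cdkn1a was replicate 4. Between the genotypes the list's range overlapped, which that of Cdkn1a did not. Nr4a1, Egr1 and Ier2 gave log2 fold changes of 0.77, 0.70 and 0.41, with adjusted p of 0.812, 0.811 and 0.812 by edgeR. Genes that the p21 and DREAM route represses had a median of 2 of 8 libraries on the side of Cdkn1a.

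Among 14 tested genes of the Atf4 response, which shares Sesn2 and Gdf15 with the p53 targets, 10 lay above 0 with a median of 0.11. Psat1, an enzyme of serine synthesis, gave 0.33 with groups that did not overlap and an adjusted p of 0.772 by edgeR, and Trib3 gave -0.54.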
